A study of Mus musculus with 14 samples.

Results

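Gene expression was compared between rejecting and tolerizing mouse heart allografts, both 7 days after transplantation, across every measured gene. The 6 arrays were taken by their labels: 3 hearts named as rejecting and 3 named as tolerizing, of 14 transplanted hearts in all, each on 1 MG-U74Av2 oligonucleotide array. Both kinds of graft were Balb/c hearts in C57/BL6 recipients. The rejecting recipients have no treatment in their labels, and the tolerizing recipients were given monoclonal antibodies against CD80 and CD86. Isografts of day 7, C57/BL6 hearts in C57/BL6 recipients (n = 3), are given beside them as a level, with no test. The other arrays, 3 tolerizing allografts and 2 isografts of day 70, entered the fit only to estimate the spread. Every one of these grafts had been through the operation, so no group is an untouched heart, and the dose of antibody, the age of the mice and whether the replicate hearts came from separate litters or operations are not given in the labels. The p-values below therefore set each difference against the spread between single hearts, pooled within the 5 groups of all 14 arrays. They cannot tell how far that spread stands for separate litters or operations.

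A T cell that meets a foreign graft needs a signal through its antigen receptor and a second, costimulatory signal through CD28. CD80 and CD86 on antigen-presenting cells are the ligands of CD28, and also of CTLA4, which restrains the T cell. Antibodies that cover both ligands withhold the second signal. In an untreated mismatched heart, T cells, macrophages and neutrophils enter the myocardium, interferon-gamma is made, and heart muscle and vessels are injured.

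The deposited table holds 12488 probe sets, of which 66 are controls. Tested were the 9605 other probe sets with a signal above 11 on at least 3 of the 6 arrays, 77.3% of the non-control probe sets. They stand for 6941 genes, each represented by its brightest probe set. Just inside that filter, 441 probe sets were above 11 on exactly 3 of the 6 arrays, with a median signal of 11.05, and just outside it 504 were above 11 on exactly 2, with a median of 8.5. Signals are linear intensities, and any signal under 11 entered the fit as 11. Every array has the same trimmed mean signal of 100.1, so a signal is a share of its own array's brightness and not an amount of RNA per heart. All 6 arrays were above 11 for 7871 probe sets. With 3 hearts a group, the number of arrays limits the precision.

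The 6 arrays did not separate cleanly into their 2 groups. Pearson correlations of log2 signal were 0.857 to 0.949 among the 3 rejecting hearts, 0.937 to 0.953 among the 3 tolerizing hearts, and 0.854 to 0.928 between the groups. Rejecting heart 3 correlated at 0.857 with rejecting heart 1 and at 0.928 with tolerizing heart 3. The summed signal of the 5 cardiomyocyte markers (Myh6, Tnni3, Tnnt2, Actc1 and Myl2) was 3041.8, 4307.7 and 13899.2 in rejecting hearts 1, 2 and 3, against 13809, 20345.7 and 16274.1 in tolerizing hearts and 30558.5, 26780.8 and 20681.3 in isografts. Rejecting heart 3 thus held its heart muscle transcripts at the level of the lowest tolerizing heart. The 5 T cell markers (Cd3d, Cd3e, Cd3g, Cd8a and Cd4) summed to 270.1, 541.4 and 1175.8 in rejecting hearts, against 457.2, 215 and 253.6 in tolerizing hearts, so here heart 3 was the highest of the 6. In the deposited order the groups are listed first with array 3 of each day 7 group, and then again with arrays 1 and 2. These stretches are called the first and second run here. They were inferred from that order alone, and no label names a batch. The 18S control was 61.6 in rejecting heart 3 and 83.4 in tolerizing heart 3, against 171.6 to 233.9 on the other 4 arrays. With the run as a block 225 probe sets were called, against 160 without it, and with arrays 1 and 2 of the second run alone 310 were called. The first run holds 1 heart of each kind, so it gives no test of its own. The ratio of 3' to 5' beta-actin signal, a sign of RNA quality, was 1.26 to 1.61 in rejecting hearts and 1.09 to 1.37 in tolerizing hearts.

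In limma's moderated test with Benjamini-Hochberg adjustment over all 9605 probe sets, 160 (1.67%) had an adjusted p under 0.05. Of these, 58 (0.604%) were higher and 102 (1.06%) lower in rejecting than in tolerizing hearts. By gene, 133 of 6941 (1.92%) were called, with 42 higher (0.605%) and 91 lower (1.31%). The groups did not overlap for any of the 133. Over all genes tested the groups did not overlap, with rejecting above, for 667 (9.61%), and with rejecting below for 620 (8.93%). By probe set those shares were 9.31% above and 8.03% below. The median fold among called genes was 3.26 for those higher and 3.06 for those lower, and 15 of the higher and 24 of the lower differed by over 4-fold. Of the rejecting hearts, heart 3 differed least from the tolerizing mean in 29 of the 42 higher and 60 of the 91 lower genes. At an unadjusted p under 0.05 there were 1513 of the 9605 probe sets, in either direction, the background for the list counts below. The 160 calls at an adjusted p under 0.05 became 788 without rejecting heart 3, 37 without tolerizing heart 2, and 34 with the 2 groups fitted alone. Of the 133 genes, 56 are in one of 48 lists of genes by cell type and pathway. Each list is described by its counts, and the uncalled members named beside the called ones were chosen after their values were seen. Of the 133 genes, 27 kept the call whichever of the 6 arrays was left out, 20 of them lower and 7 higher in rejecting hearts. With the 2 groups fitted alone 24 of the 133 kept it and 109 did not. The median SD of log2 signal was 0.388 in rejecting hearts, 0.283 in tolerizing hearts and 0.281 in isografts of day 7. The main fit pools the spread over all groups and does not allow for the wider one among rejecting hearts. Where single hearts lie under the floor of 11, the size of a difference depends on the floor.

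**Figure D1:**
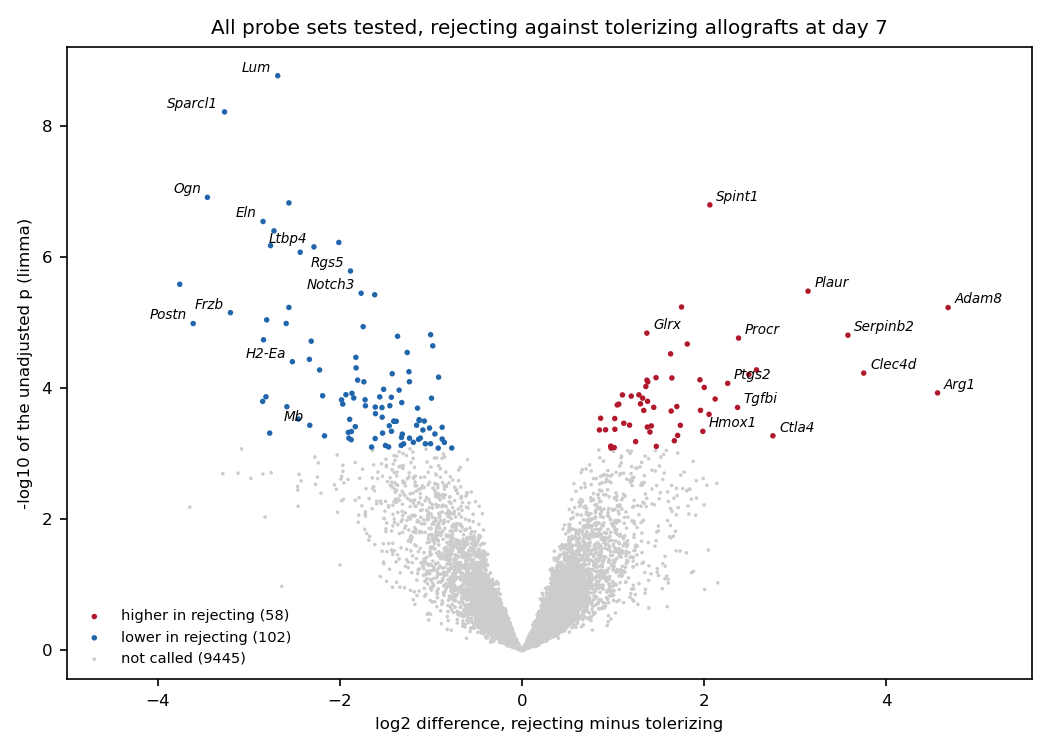
Each point is 1 of 9605 probe sets. The x axis is the log2 difference, rejecting minus tolerizing allografts at day 7 (n = 3 each), and the y axis is -log10 of limma's unadjusted p. The 58 probe sets called higher are red, the 102 called lower are blue and the rest are grey. Adam8 and Arg1 lie farthest right, and Lum and Sparcl1 have the smallest p.

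Of the 91 genes lower in rejecting hearts, 13 belong to the 4 lists of connective tissue matrix below. Small leucine-rich proteoglycans coat collagen fibrils and set their width, and 4 of the 8 on the array passed the signal filter. All 4 had lower signals in rejecting hearts, and 3 of them fell past the threshold (median log2 difference of the list -2.21, against 0.0438 over all genes tested). Ogn, osteoglycin, had signals of 19.2, 16.8 and 31.1 in rejecting hearts, against 288.4, 201.4 and 227.1 in tolerizing hearts. It fell by 3.45 on the log2 scale (SE 0.351, limma adjusted p = 0.00031), and its second probe set was also called lower, with rejecting hearts 1 and 2 under the floor of 11. Lum, lumican, had 133.8, 206.2 and 166.4 in rejecting hearts, against 1263.3, 970.9 and 990.2 in tolerizing hearts. Dcn, decorin, had 1196.7, 822.4 and 539.5 in rejecting hearts, against 2427.9, 2901.5 and 2831.6 in tolerizing hearts. No rejecting heart reached the lowest tolerizing heart for any of these 3 genes. Bgn, biglycan, had 2545.9, 1542.2 and 924.4 in rejecting hearts, against 3351.4, 3445.2 and 3850.1 in tolerizing hearts, a log2 difference of -1.20 that did not pass (adjusted p = 0.137). The isografts of day 7 had signals of 281.1 to 688.6 for Ogn, 1018.5 to 1246.4 for Lum and 3757.6 to 3976.1 for Dcn. In hearts measured whole, fewer cells of a type and less RNA per cell cannot be told apart.

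Of 12 genes of the elastic fibre and its microfibrils, 4 fell and none rose, and 11 had a negative difference (median -1). Eln, elastin, the stretchable core of the fibre, had 92.6, 99.5 and 85.2 in rejecting hearts, against 849.6, 455.6 and 749 in tolerizing hearts. Ltbp4, which binds latent TGF-beta to microfibrils and is needed for elastic fibres, had 112, 105.2 and 128.9 in rejecting hearts, against 476.9, 541.8 and 679.6 in tolerizing hearts. The difference for Ltbp4 was -2.28 log2 (SE 0.268, limma adjusted p = 0.000677), with rejecting signals within a narrow band well below the others. Mfap4, a microfibril-associated glycoprotein, had 39.2, 22.4 and 12.9 in rejecting hearts, against 196.3, 94.2 and 211.9 in tolerizing hearts (log2 difference -2.81, limma adjusted p = 0.0191). Mfap5 also fell (limma adjusted p = 0.036), although a second, dimmer probe set for it had a difference of -0.56 that was not called. The call for Mfap4 is lost without tolerizing heart 3 (adjusted p = 0.0868) and that for Mfap5 without rejecting heart 2 (adjusted p = 0.17).

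Of 13 matricellular proteins, which sit in the matrix and signal to cells more than they bear load, 3 fell and 1 rose. Postn, periostin, a product of activated fibroblasts, had 117.9, 103.9 and 432 in rejecting hearts, against 2131.7, 1985.1 and 2275.7 in tolerizing hearts. At 12.2-fold this was the largest difference among the called falls measured above 11 on all 6 arrays (log2 difference -3.61, SE 0.538, limma adjusted p = 0.00435). Sparcl1, also called hevin, had 77, 59.5 and 62.9 in rejecting hearts, against 477.3, 678.9 and 791.9 in tolerizing hearts. Ccn5, a member of the CCN family, had 3.8 to 15.4 in rejecting hearts and 36.3 to 80 in tolerizing hearts. Tgfbi, a TGF-beta induced adhesion protein that macrophages also make, went the other way, with 942, 1134.4 and 807.7 in rejecting hearts, against 238.8, 161.5 and 163.1 in tolerizing hearts. The rise in Tgfbi was 2.37 log2 (SE 0.473, limma adjusted p = 0.0212), and it is lost without tolerizing heart 2 (adjusted p = 0.12). A second, dim probe set for Tgfbi had a difference of 0.14 and was not called. The call for Ccn5 is lost without rejecting heart 2 (adjusted p = 0.161). Tnc, tenascin C, had 540.5, 430 and 90 in rejecting hearts, against 87.9, 86.9 and 100.5 in tolerizing hearts, so heart 3 lay with the tolerizing hearts and the difference was not called (adjusted p = 0.375).

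Of 37 collagens, laminins and collagen-processing genes, 3 fell and none rose (median -0.321). Col8a1, a short-chain collagen of vessel walls and of fibroblasts, had 47.4, 47.5 and 87.5 in rejecting hearts, against 282.9, 378.8 and 671.8 in tolerizing hearts. Lama2, the laminin chain of the basement membrane around muscle fibres, had 21.9, 34.1 and 48.6 in rejecting hearts, against 112.5, 188.7 and 210.1 in tolerizing hearts (log2 difference -2.31, limma adjusted p = 0.00598). Pcolce, which enhances the cleavage of procollagen, had 208.3, 266.7 and 166.6 in rejecting hearts, against 389.4, 525.4 and 461 in tolerizing hearts, and its call is lost without tolerizing heart 2 (adjusted p = 0.201). Col1a1, the main chain of type I collagen, had 4827.5, 3052.8 and 857.2 in rejecting hearts, against 2595.9, 2297.7 and 2720.8 in tolerizing hearts. Rejecting hearts 1 and 2 lay above and heart 3 below all tolerizing hearts for Col1a1, and limma made no call (log2 difference -0.12, adjusted p = 0.951). Col3a1, the chain of type III collagen, had 1430.2, 1270.6 and 616 in rejecting hearts, against 2187.7, 1560.1 and 1864.5 in tolerizing hearts, with every rejecting heart below every tolerizing heart and no call (log2 difference -0.84, adjusted p = 0.25). In 28 of the 37 genes rejecting heart 3 had the lowest of the 3 rejecting signals, and without it the median of the list is 0.191 in place of -0.321. The 5 fibroblast markers (Col1a1, Col1a2, Col3a1, Dcn and Pdgfra) summed to 10594.3, 7297.2 and 2456 in rejecting hearts, against 9560.7, 8433.6 and 9292.8 in tolerizing hearts. Their part in the falls above was not tested. For Lum, Ogn, Eln and Postn, without rejecting heart 3 the log2 differences were -2.68, -3.72, -2.79 and -4.26, with limma adjusted p of 2.8e-05, 9.7e-05, 0.00055 and 0.00019.

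**Figure D2:**
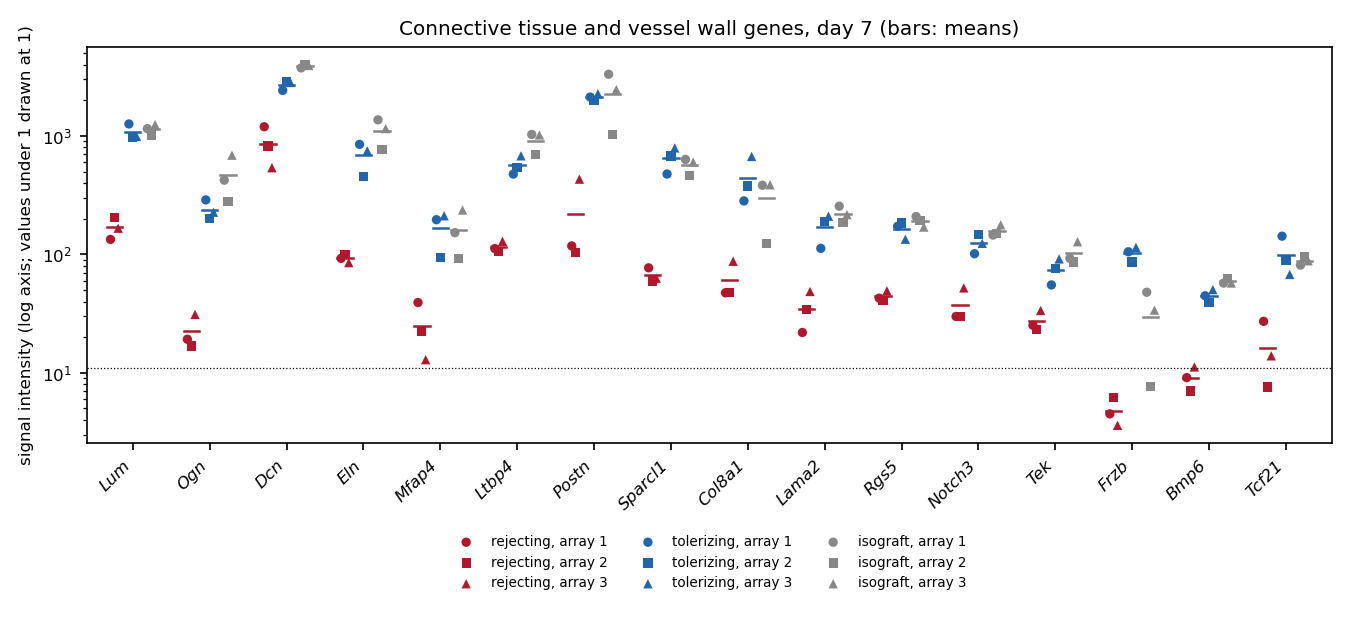
Signal intensity (log axis) of 16 connective tissue and vessel wall genes in rejecting allografts (red), tolerizing allografts (blue) and isografts (grey) at day 7, with the symbol giving the array number and the short bar the mean of 3 hearts. Rejecting hearts lie below all tolerizing hearts for each of the 16. The dotted line marks the floor of 11, and all 3 rejecting hearts are under it for Frzb.

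Genes of secreted signalling regulators and growth factors were also among the falls. Of 23 regulators of TGF-beta, BMP and Wnt signalling, 2 fell and none rose (median -0.342). Frzb, a secreted antagonist that binds Wnt ligands, had 4.5, 6.2 and 3.6 in rejecting hearts, all under the floor of 11, against 105.2, 86.1 and 114.3 in tolerizing hearts. It was at least 9.2-fold lower in rejecting hearts (limma adjusted p = 0.00341). The isografts had 47.9, 7.7 and 33.8 for Frzb, so the tolerizing hearts stood above both other groups. Bmp6, a bone morphogenetic protein made by endothelium, had 9.1, 7 and 11.2 in rejecting hearts, against 44.7, 39.4 and 50.4 in tolerizing hearts (log2 difference -2.01, limma adjusted p = 0.000677). A second, dim probe set for Bmp6 had a difference of -0.44 and was not called. Igf2, the only called gene of 11 insulin-like growth factor genes, had 98.8, 80.2 and 88.3 in rejecting hearts, against 236.4, 199.3 and 204 in tolerizing hearts and 494.6, 533.5 and 798.5 in isografts. Without rejecting heart 2 the call for Igf2 is lost (adjusted p = 0.0511).

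Further called falls were in genes of none of the lists, and those that follow were chosen after their values were seen. Tcf21, a transcription factor needed to form cardiac fibroblasts from the epicardium, had 27.2, 7.6 and 13.9 in rejecting hearts, against 142.5, 88.3 and 67.7 in tolerizing hearts (log2 difference -2.56, limma adjusted p = 0.003). Dpt, dermatopontin, a small matrix protein that binds decorin, had 1.9, 7.2 and 32.7 in rejecting hearts, against 117, 82.1 and 89.8 in tolerizing hearts. Apod, a lipid carrier, had 4.8, 3.6 and 13.1 in rejecting hearts, against 54.6, 91.4 and 98.9 in tolerizing hearts. These 3 kept the call whichever array was left out, and with the 2 groups fitted alone Apod kept it (adjusted p = 0.0176) and Tcf21 and Dpt did not (adjusted p = 0.0583 and 0.0624). Meox1 and Meox2, paired homeobox factors of mesoderm, fell by 1.74 and 1.97 on the log2 scale (limma adjusted p = 0.0144 and 0.0209). Bdnf, a neurotrophin, had 49.3, 45.7 and 31.1 in rejecting hearts, against 120.7, 192.8 and 167.5 in tolerizing hearts and 89.2, 52.9 and 45 in isografts, so the tolerizing hearts stood above both other groups. Il6st, gp130, the shared receptor chain of the interleukin-6 family, had 138.5 to 170.5 in rejecting hearts and 272.3 to 348.5 in tolerizing hearts (log2 difference -0.98, limma adjusted p = 0.00663). A second, dimmer probe set for Il6st overlapped between the groups and was not called (log2 difference -0.40). Gas6, the ligand of the TAM receptors by which phagocytes take up dying cells, had 97.1, 70.1 and 53.3 in rejecting hearts, against 221, 197.4 and 161.1 in tolerizing hearts and 402 to 467.6 in isografts (log2 difference -1.42, limma adjusted p = 0.0132). The calls for Meox2, Bdnf, Il6st and Gas6 are lost without tolerizing heart 2 (adjusted p = 0.102, 0.111, 0.0548 and 0.0696), and that for Meox1 without tolerizing heart 3 (adjusted p = 0.0738).

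In the vessel wall, genes of pericytes and of endothelium fell. Of 12 smooth muscle and pericyte genes, 3 fell and none rose (median -0.562). Rgs5, a G protein regulator that marks pericytes, had 42.7, 40.6 and 49.2 in rejecting hearts, against 172.7, 184.5 and 134.3 in tolerizing hearts (log2 difference -1.88, SE 0.238, limma adjusted p = 0.00132). Its second probe set was also called lower, with rejecting hearts 1 and 2 under the floor. Notch3, the Notch receptor of mural cells, had 29.9, 30 and 52.1 in rejecting hearts, against 101.3, 146.5 and 123.9 in tolerizing hearts. Kcnj8, the pore of the vascular ATP-sensitive potassium channel, had 5, 9.3 and 25.5 in rejecting hearts, against 35.2, 74.9 and 56.8 in tolerizing hearts, a call that is lost without tolerizing heart 2 (adjusted p = 0.111). The contractile genes of smooth muscle were not called: Acta2 had 1042.6, 649.4 and 169.4 in rejecting hearts, against 363.5, 380.2 and 294.4 in tolerizing hearts (limma adjusted p = 0.73). Tagln had 1448.3, 646.2 and 132.3 in rejecting hearts, against 330.2, 246.5 and 362 in tolerizing hearts. For both, rejecting hearts 1 and 2 were above every tolerizing heart and heart 3 was below.

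Of 23 endothelial genes, 2 fell and none rose, while 21 had a negative difference and 13 had every rejecting heart below every tolerizing heart (median -0.525). Over all genes tested 8.93% had that order. Tek, the angiopoietin receptor TIE2, had 25.2, 23.1 and 33.6 in rejecting hearts, against 55.2, 76.4 and 91.5 in tolerizing hearts and 86.5 to 127.9 in isografts (log2 difference -1.43, limma adjusted p = 0.0191). Cd34, a sialomucin of capillary endothelium, had 51.9, 100.1 and 95.7 in rejecting hearts, against 169.1, 204.9 and 159.2 in tolerizing hearts. Aqp1, the water channel of capillaries, had 28.3, 7.3 and 28.6 in rejecting hearts, against 61.7, 96.3 and 169.7 in tolerizing hearts, and missed the threshold (log2 difference -2.27, adjusted p = 0.0583). Other endothelial genes overlapped, with Pecam1 at 40.9 to 79.5 in rejecting hearts and 40.4 to 90.9 in tolerizing hearts, and Cdh5 at 153.2 to 177.2 in rejecting hearts and 162.1 to 244.6 in tolerizing hearts. The 5 endothelial markers summed to 339.2 to 359.1 in rejecting hearts and 435.3 to 544.8 in tolerizing hearts. Without tolerizing heart 2 the calls for Tek and Cd34 are lost (adjusted p = 0.102 and 0.179).

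Several genes of activated macrophages rose in rejecting hearts. Of 17 genes of macrophage activation, 5 rose and none fell (median 1.13). Arg1, arginase 1, which consumes arginine and marks one state of activated macrophages, had 3791.6, 2971.7 and 314.1 in rejecting hearts, against 77.1, 32.8 and 105.9 in tolerizing hearts. That is 23.6-fold (log2 difference 4.56, SE 0.863, limma adjusted p = 0.019), and the difference is 5.70 without rejecting heart 3 and 3.91 without rejecting heart 1. Clec4d, a C-type lectin receptor of myeloid cells, had 848.5, 538.6 and 71.1 in rejecting hearts, against 21.4, 17.9 and 34.7 in tolerizing hearts. Ptgs2, the inducible cyclooxygenase that makes prostaglandins, had 94.7, 99.4 and 97.8 in rejecting hearts, against 10.7, 16.2 and 47.1 in tolerizing hearts. Ptgs2 was even across the rejecting hearts, whereas Arg1 and Clec4d were far lower in heart 3 than in hearts 1 and 2. The log2 difference for Clec4d was 3.75, and was 3.05 without rejecting heart 1 and 4.84 without rejecting heart 3, while that for Ptgs2 was 2.26, and was 2.86 without tolerizing heart 3. Hmox1, heme oxygenase 1, had 3408.9, 4203.8 and 1049.2 in rejecting hearts, against 714.2, 471 and 719.5 in tolerizing hearts (log2 difference 1.99, and 2.60 without rejecting heart 3). Lgals3, galectin 3, had 933.7, 1145.2 and 879 in rejecting hearts, against 352, 194.5 and 233.2 in tolerizing hearts (log2 difference 1.96, limma adjusted p = 0.0227). Without tolerizing heart 2 these 5 calls are lost, with adjusted p of 0.103 for Arg1, 0.076 for Clec4d, 0.0862 for Ptgs2, 0.186 for Hmox1 and 0.137 for Lgals3. Nos2, the nitric oxide synthase of the opposite activation state, had 53.7, 57.9 and 23.3 in rejecting hearts, against 21.1, 18.8 and 18.1 in tolerizing hearts, with no call (adjusted p = 0.232). Mrc1, the mannose receptor, had 51.1, 41.2 and 23.3 in rejecting hearts, against 55.8, 63.2 and 91 in tolerizing hearts, with no call (adjusted p = 0.263).

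Adam8, a membrane metalloprotease of activated leukocytes, had the largest rise of any gene named by the rule. Its signals were 779.7, 802.9 and 194.2 in rejecting hearts, against 12.3, 7.9 and 53.5 in tolerizing hearts, a 25.6-fold difference (log2 difference 4.68, SE 0.662, limma adjusted p = 0.003). It was the only called gene of 16 metalloproteinases and inhibitors, and the call held whichever array was left out (largest adjusted p = 0.0253). The log2 difference was 5.35 without rejecting heart 3 and 5.41 without tolerizing heart 3, and with tolerizing heart 2 under the floor it was 3.49 at a floor of 40. Timp1, the inhibitor most often induced in injured hearts, had 4443, 2530 and 1319.4 in rejecting hearts, against 1229.4, 1762.8 and 1987.3 in tolerizing hearts, with overlap and no call. Among 30 macrophage and monocyte genes 1 rose, although 29 had a positive difference (median 0.688). That gene was Pirb, an inhibitory receptor for MHC class I on myeloid cells, with 318.4, 320.9 and 271.6 in rejecting hearts, against 146.8, 83 and 128.9 in tolerizing hearts (limma adjusted p = 0.0144), a call that is lost without tolerizing heart 2 (adjusted p = 0.0827). The macrophage markers Cd68, Adgre1, Csf1r, Lyz2 and Fcgr3 summed to 3885.1, 3843.7 and 3259.2 in rejecting hearts, against 2924.4, 2146.2 and 2643.5 in tolerizing hearts and 1673.3 to 1978.7 in isografts. The sums did not overlap and differed far less than Arg1, Clec4d or Adam8 did, and their part in those rises was not tested. Adgre1, which encodes F4/80, had 146.3, 152.6 and 241.8 in rejecting hearts, against 291.3, 129.8 and 302.8 in tolerizing hearts.

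Several called rises were in genes of no list or of another list, and those from Plin2 to Ikbke here were chosen after their values were seen. Plin2, which coats lipid droplets, had 1365.6, 954.9 and 372.4 in rejecting hearts, against 168, 222.1 and 223.6 in tolerizing hearts (log2 difference 1.95, limma adjusted p = 0.0143). Slc11a1, the phagosomal metal transporter Nramp1, had 430.3, 440.2 and 350.1 in rejecting hearts, against 230.6, 118.7 and 167.7 in tolerizing hearts. Pla2g7, the plasma phospholipase that macrophages secrete, had 313.7, 325.2 and 356.3 in rejecting hearts, against 104.8, 81.3 and 122.2 in tolerizing hearts. Of these 3, Plin2 was the most uneven among rejecting hearts, and none overlapped between the groups. Glrx, glutaredoxin, had 648, 765.8 and 586.7 in rejecting hearts, against 332.7, 251.2 and 201.3 in tolerizing hearts (log2 difference 1.37, limma adjusted p = 0.00557), and kept its call whichever array was left out but not with the 2 groups fitted alone (adjusted p = 0.0565). Cd1d1, which presents lipid antigens to NKT cells, had 93.6, 84.7 and 61.7 in rejecting hearts, against 27.2, 17.7 and 27.3 in tolerizing hearts. Ikbke, a kinase of the NF-kappaB and interferon pathways, had 114.6, 84.9 and 94.8 in rejecting hearts, against 26.3, 23.9 and 22.9 in tolerizing hearts. The calls for Slc11a1, Pla2g7, Cd1d1 and Ikbke are lost without tolerizing heart 2 (adjusted p = 0.103, 0.196, 0.182 and 0.0785), and that for Plin2 without rejecting heart 2 (adjusted p = 0.0784). Spint1, an inhibitor of serine proteases best known from epithelium, had 51.8, 46.2 and 40.6 in rejecting hearts and only signals under the floor in tolerizing hearts, at least 4.18-fold higher in rejecting hearts (limma adjusted p = 0.00031).

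No gene of the neutrophil and interleukin-1 list was called by limma, although 20 of 21 had a positive difference and 10 had an unadjusted p under 0.05 with rejecting higher (median 0.993). S100a8, a calcium-binding protein of neutrophils and monocytes, had 1254.7, 637.2 and 404 in rejecting hearts, against 136.1, 119.7 and 316.8 in tolerizing hearts (log2 difference 1.99, adjusted p = 0.0804). Il1r2, the decoy receptor of interleukin 1, had 109.1, 106.9 and 95 in rejecting hearts, against 35.8, 25.7 and 44.6 in tolerizing hearts (adjusted p = 0.0517). Without rejecting heart 3, 7 genes of this list are called higher. The 5 neutrophil markers (S100a8, S100a9, Csf3r, Ly6g and Ngp) summed to 2550.6, 1207.2 and 732.7 in rejecting hearts, against 373.3, 303.6 and 722.9 in tolerizing hearts, and their part in the rises of Clec4d, Cxcl2 and Adam8 was not tested. S100a8 and S100a9 made up most of each rejecting sum, and the groups overlapped for S100a9 and Csf3r. Csf3r had 262.8, 223.9 and 75.3 in rejecting hearts, against 161.5, 77 and 142 in tolerizing hearts. Ly6g was at most 16.9 on these 6 arrays. The secondary granule genes Camp and Ngp were high in 1 rejecting heart, with 674.2 and 345.8 in heart 1, and at or near the tolerizing level in hearts 2 and 3 for Ngp.

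Several genes that act on plasminogen and thrombin at the cell surface rose. Of 17 genes of coagulation and plasminogen activation, 5 rose and none fell (median 0.182). Plaur, the receptor that holds urokinase on the cell surface, had 150.9, 153.9 and 145.2 in rejecting hearts, against 8.6, 8.6 and 40.6 in tolerizing hearts, a log2 difference of 3.14 with signals under 11 set to 11 (SE 0.422, limma adjusted p = 0.00227). Tolerizing hearts 1 and 2 are under that floor, and the difference was 3.77 without tolerizing heart 3, 2.57 at a floor of 20 and 1.90 at a floor of 40. Serpinb2, the urokinase inhibitor PAI-2 of macrophages, had 508.9, 160.5 and 63.2 in rejecting hearts, against 15.1, 7.4 and 18.2 in tolerizing hearts (log2 difference 3.58, limma adjusted p = 0.00557). Without rejecting heart 1 the difference was 2.80 and without rejecting heart 3 it was 4.30. Procr, the endothelial receptor for protein C, had 197.4, 252.4 and 141.1 in rejecting hearts, against 54.2, 28.5 and 32.4 in tolerizing hearts. Plaur was nearly the same in all 3 rejecting hearts, and Serpinb2 ranged widely but did not overlap. F10, coagulation factor X, had 57.6, 44 and 37.4 in rejecting hearts, against 15.5, 11.8 and 11.9 in tolerizing hearts, and its second probe set was called higher as well. S100a10, which with annexin A2 forms a plasminogen receptor, had 1698.5, 1836.8 and 1196.8 in rejecting hearts, against 673.2, 628 and 590.3 in tolerizing hearts (log2 difference 1.30, limma adjusted p = 0.0209). A second, dimmer probe set for S100a10 overlapped between the groups and was not called (log2 difference 0.05). Plaur, Serpinb2, Procr and F10 kept their calls whichever array was left out, and S100a10 lost it without rejecting heart 2 (adjusted p = 0.104). With the 2 groups fitted alone Procr kept its call (adjusted p = 0.03), and Plaur, Serpinb2 and F10 did not (limma adjusted p = 0.0524, 0.0739 and 0.0565). Urokinase and tissue factor were not called. Plau, urokinase, had 43.1, 56.9 and 28.5 in rejecting hearts, against 32.5, 63.1 and 30.1 in tolerizing hearts, and F3, tissue factor, had 15.1, 20.8 and 5 in rejecting hearts, against 28.7, 17.4 and 20.5 in tolerizing hearts.

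The bases upstream of 3 of these genes and of Cxcl2 are shown because they hold letters of the AP-1 or kappaB kind, the binding motifs of transcription factors known to act in activated macrophages. Each is the 250 bases before the annotated gene start on the + strand of GRCm38.p6, from RefSeq, written 5' to 3', with motif matches in capitals: Plaur at chr7:24462233-24462482, Serpinb2 at chr1:107511173-107511422, Procr at chr2:155750967-155751216 and Cxcl2 at chr5:90903649-90903898.
Plaur: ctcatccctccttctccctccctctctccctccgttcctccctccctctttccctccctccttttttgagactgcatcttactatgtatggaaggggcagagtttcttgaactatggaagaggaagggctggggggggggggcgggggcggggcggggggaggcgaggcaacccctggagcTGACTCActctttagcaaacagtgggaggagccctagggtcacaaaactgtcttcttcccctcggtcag
Serpinb2: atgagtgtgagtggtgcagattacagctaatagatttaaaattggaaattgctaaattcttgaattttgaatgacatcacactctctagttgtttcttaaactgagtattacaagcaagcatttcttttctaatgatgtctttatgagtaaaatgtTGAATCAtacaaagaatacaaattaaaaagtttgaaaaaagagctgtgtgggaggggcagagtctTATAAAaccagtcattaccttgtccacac
Procr: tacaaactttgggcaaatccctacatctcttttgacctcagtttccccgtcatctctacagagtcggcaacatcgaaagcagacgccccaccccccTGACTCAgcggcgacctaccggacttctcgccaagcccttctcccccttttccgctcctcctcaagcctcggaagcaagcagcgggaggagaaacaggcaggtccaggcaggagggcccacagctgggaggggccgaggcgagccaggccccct
Cxcl2: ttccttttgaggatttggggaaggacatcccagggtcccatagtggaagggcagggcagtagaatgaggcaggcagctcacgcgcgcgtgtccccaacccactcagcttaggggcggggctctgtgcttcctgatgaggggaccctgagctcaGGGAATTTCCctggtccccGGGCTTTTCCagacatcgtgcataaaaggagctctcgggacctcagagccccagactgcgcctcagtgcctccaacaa
The capitals in Plaur, Serpinb2 and Procr are AP-1 matches (TGANTCA), which begin 69, 94 and 154 bases before the start, and Serpinb2 also has TATAAA beginning 29 bases before it. The capitals in Cxcl2 are 2 kappaB matches of 10 letters, beginning 97 and 78 bases before the start. Both strands were searched. Of the 42 genes called higher, 29 matched an entry in the promoter table, and 4 of those (13.8%) held an AP-1 match: Plaur, Glrx, Serpinb2 and Procr. The share was 4.55% of 66 matched genes called lower, 5.28% of 5548 matched genes tested and 6.87% of all 27025 promoters. A kappaB match was in 3.45% of the genes called higher (Cxcl2 alone), in none of the 66 called lower, in 1.59% of genes tested and in 1.4% of all promoters. TTCNNNGAA, a STAT motif, was in 10.3%, 6.06%, 6.15% and 7.18% of the same 4 sets, and TATAAA in 3.45%, 7.58%, 8.38% and 13% of them. A match is only these letters in this window, and binding was not measured.

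**Figure D3:**
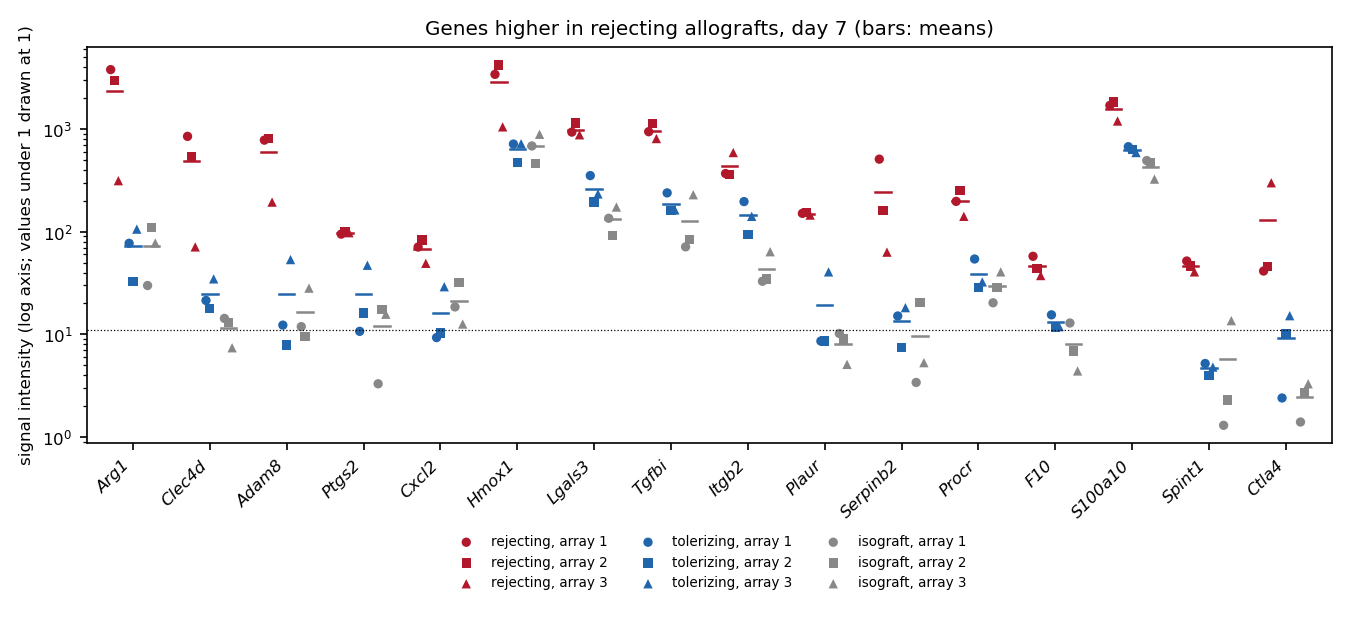
Signal intensity (log axis) of 16 genes higher in rejecting allografts (red), beside tolerizing allografts (blue) and isografts (grey) at day 7, with the symbol giving the array number and the short bar the mean of 3 hearts. All rejecting hearts lie above all tolerizing hearts for each gene. Rejecting heart 3 is the lowest red point for every gene but Ptgs2, Itgb2 and Ctla4, and the highest for Itgb2 and Ctla4.

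Among 29 chemokines and chemokine receptors 1 rose and none fell (median 0.314). Cxcl2, which draws neutrophils through CXCR2, had 70.9, 83 and 49.2 in rejecting hearts, against 9.3, 10.3 and 29.1 in tolerizing hearts (log2 difference 2.12, limma adjusted p = 0.0194). The call for Cxcl2 is lost without tolerizing heart 2 (adjusted p = 0.12). The chemokines that interferon-gamma induces to draw T cells were not called. Cxcl9 had 563.3, 1020.7 and 1947.5 in rejecting hearts, against 1149.7, 858.1 and 1158 in tolerizing hearts and 43.7 to 171.6 in isografts, with a log2 difference of -0.01. Ccl5, a T cell and macrophage chemokine, had 898.1, 1239.8 and 1704.2 in rejecting hearts, against 643, 296.8 and 522.7 in tolerizing hearts, without overlap but also without a call (adjusted p = 0.362). Itgb2, the beta chain of the leukocyte integrins, was the called gene of 18 adhesion genes, with 368.6, 361.8 and 590 in rejecting hearts, against 196.5, 94.2 and 141.1 in tolerizing hearts (limma adjusted p = 0.023). Tnfrsf1b, the second TNF receptor, had 327.2, 331.5 and 250.7 in rejecting hearts, against 194.5, 117 and 156.7 in tolerizing hearts. It was called at a limma adjusted p of 0.0486. The calls for Itgb2 and Tnfrsf1b are lost without tolerizing heart 2 (adjusted p = 0.144 and 0.257).

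The transcripts of T cells themselves were present in both groups and none of 22 T cell genes passed limma's threshold, with 4 at an unadjusted p under 0.05 (median 0.523). Over all probe sets tested 1513 of 9605 had such a p, in either direction. The T cell median was 0.173 without rejecting heart 3 and 0.0176 with the second run alone. Cd8a had 70, 216.4 and 466 in rejecting hearts, against 159.7, 61.8 and 73.7 in tolerizing hearts and 2.5, 3.9 and 15.4 in isografts. Cd3e had 35.5, 87.2 and 249.8 in rejecting hearts, against 79, 15.7 and 49.8 in tolerizing hearts and 10.1, 14.1 and 54.2 in isografts. The 2 groups overlapped for both genes. Rejecting heart 3 was the highest of its group for 15 of the 22. Of 16 cytotoxic and NK cell genes none passed, with 6 at an unadjusted p under 0.05 and 5 with every rejecting heart above every tolerizing heart (median 0.841). Over all genes tested 9.61% had that order. Prf1, perforin, had 41.7, 46.2 and 134.4 in rejecting hearts, against 36.3, 15.3 and 19.8 in tolerizing hearts (log2 difference 1.52, adjusted p = 0.0981). Gzmb, granzyme B, had 199.6, 272.8 and 2033.7 in rejecting hearts, against 125.5, 167.8 and 165.5 in tolerizing hearts. One heart carries most of that difference, and limma's adjusted p was 0.199.

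Ctla4, the inhibitory receptor that shares CD80 and CD86 with CD28, was the called gene of 13 costimulatory and checkpoint genes. It had 41.4, 45.6 and 299.6 in rejecting hearts, against 2.4, 10.2 and 15.2 in tolerizing hearts and 1.4, 2.7 and 3.3 in isografts. The difference was 2.75 log2 (SE 0.615, limma adjusted p = 0.0384), is lost without tolerizing heart 2 (adjusted p = 0.172) and is 1.83 without rejecting heart 3. Ctla4 was called while Cd3e, Cd3g and Cd28 were not, and the difference between those genes was not tested. Pdcd1, the receptor PD-1, had 55.9, 68.5 and 223.8 in rejecting hearts, against 38.8, 15.5 and 44.4 in tolerizing hearts (log2 difference 1.67, adjusted p = 0.106). Of the targets of the antibodies, Cd86 had 93.6, 153.7 and 158.6 in rejecting hearts, against 94.7, 38.9 and 36.3 in tolerizing hearts, with overlap in 1 heart and no call (adjusted p = 0.118). Cd80 had 33.8, 19.5 and 17.1 in rejecting hearts, against 20.7, 18.5 and 19.3 in tolerizing hearts. The antibodies bind these proteins, so their transcripts are no check of the treatment.

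Genes that respond to interferon-gamma overlapped between both kinds of allograft. None of 9 interferon-gamma inducible GTPases was called by limma, and none had an unadjusted p under 0.05 (median -0.158). Iigp1 had 1187.8, 2857.1 and 3753.4 in rejecting hearts, against 3207.8, 4575.7 and 4550.1 in tolerizing hearts and 562.1, 817.4 and 1295 in isografts (log2 difference -0.80, SE 0.386, adjusted p = 0.337). Gbp2b had 932.6, 1705.1 and 2275.1 in rejecting hearts, against 1276.3, 1308.5 and 1373.8 in tolerizing hearts and 1 to 1.3 in isografts. In all 9 genes heart 3 was the highest of the rejecting hearts. The members of this family resemble each other in sequence, and their probe sets may share signal. Ifng, the cytokine, had 17.9, 35.2 and 111.5 in rejecting hearts, against 14.3, 2.9 and 7.7 in tolerizing hearts (log2 difference 1.78, adjusted p = 0.0762), with tolerizing signals at or near the floor. Without rejecting heart 3 that difference was 1.06, with a limma adjusted p of 0.0402. Of 20 type I interferon genes none was called, with 3 at an unadjusted p under 0.05 (median -0.0431).

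MHC class I presentation genes had a median difference of 0.0189 over 18 genes, none called and none at an unadjusted p under 0.05. Of 12 class II genes 1 fell and none rose. H2-Aa had 3788.3, 4153.3 and 3245.5 in rejecting hearts, against 4449.3, 2583.5 and 2751.6 in tolerizing hearts. The fallen gene was H2-Ea, whose promoter is deleted in the C57/BL6 haplotype, so that its transcript in an allograft comes from Balb/c cells. It had 48.1, 50.4 and 217.3 in rejecting hearts, against 408.5, 442.1 and 552 in tolerizing hearts and 2.5 to 8.1 in isografts (log2 difference -2.52, limma adjusted p = 0.01). Only the allografts were above the floor, as the donor strains on the labels would give. The call for H2-Ea is lost without rejecting heart 2 (adjusted p = 0.0564), and the difference is -3.23 without rejecting heart 3.

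Heart muscle genes were far lower in rejecting hearts 1 and 2 and near the tolerizing level in rejecting heart 3. Of 21 sarcomere genes 1 fell and none rose, while 19 had a negative difference and 16 had an unadjusted p under 0.05 in that direction (median -1.42). Myh6, the adult fast myosin heavy chain, had 108.7, 76.3 and 2212.3 in rejecting hearts, against 1990.8, 3721.5 and 2294.5 in tolerizing hearts, and was not called (log2 difference -3.28, adjusted p = 0.0768). Myh7, the slow chain, had 148, 155.2 and 2622.3 in rejecting hearts, against 2165.5, 3461.5 and 3924 in tolerizing hearts (adjusted p = 0.0804). Mybpc3, cardiac myosin-binding protein C, was the called gene, with 1095.3, 1892.5 and 2219.6 in rejecting hearts, against 3404.3, 4528 and 3893.3 in tolerizing hearts (log2 difference -1.24, limma adjusted p = 0.0405). That call is lost without tolerizing heart 2 (adjusted p = 0.201). In 18 of the 21 genes heart 3 was the highest rejecting heart, and without it 17 are called lower and the median is -2.16. Tpm1 went the other way, at 688.5, 429.1 and 133.6 in rejecting hearts, against 184.1, 127.7 and 167.5 in tolerizing hearts, with no call (adjusted p = 0.256).

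Among genes of energy transfer, calcium handling and mitochondrial metabolism 7 fell, each of them a call that is lost when 1 heart is left out. Of 10 genes of creatine kinase and energy transfer 2 fell, Mb and Ckm, and of 13 genes of calcium handling 1 fell, Casq2. Mb, myoglobin, had 363.1, 473.4 and 2204.6 in rejecting hearts, against 3122.1, 4332 and 3564.7 in tolerizing hearts (log2 difference -2.33, limma adjusted p = 0.0318), and the difference is -3.13 without rejecting heart 3. Ckm, muscle creatine kinase, had 7.5, 11.9 and 48 in rejecting hearts, against 82.6, 139.6 and 116.8 in tolerizing hearts, although its second probe set overlapped. Without rejecting heart 3 the log2 difference for Ckm is -3.27, against -2.58 with it. Rejecting heart 3 had several times the signal of hearts 1 and 2 for both genes and was still below every tolerizing heart. Casq2, the calcium store protein of the sarcoplasmic reticulum, had 54, 36.8 and 84 in rejecting hearts, against 100.8, 180.7 and 161.6 in tolerizing hearts. Of 27 genes of fatty acid uptake and oxidation 2 fell (median -0.657), Acadm, the medium-chain acyl-CoA dehydrogenase, and Lpl, lipoprotein lipase. Lpl had 222.3, 244.2 and 681.8 in rejecting hearts, against 773.6, 1764.9 and 1387.4 in tolerizing hearts and 2790.6 to 3197 in isografts. Of 22 genes of the tricarboxylic acid cycle 1 fell, Idh2, the mitochondrial NADP-dependent isocitrate dehydrogenase, and 20 had a negative difference (median -0.939). It had 86.1, 89 and 214.3 in rejecting hearts, against 340.1, 681.4 and 318.6 in tolerizing hearts and 1678.5 to 2041.3 in isografts. Of 64 genes of the respiratory chain and ATP synthase 1 fell, Ndufb8 of complex I, while 59 had a negative difference and 42 an unadjusted p under 0.05 (median -0.812). Without rejecting heart 3 the lower calls are 15 for the tricarboxylic acid cycle, 37 for the respiratory chain and 8 for fatty acids. Without tolerizing heart 2 the calls for Ckm, Casq2, Lpl, Acadm, Idh2 and Ndufb8 are lost (adjusted p = 0.122 to 0.254), and without rejecting heart 2 that for Mb is lost (adjusted p = 0.164).

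**Figure D4:**
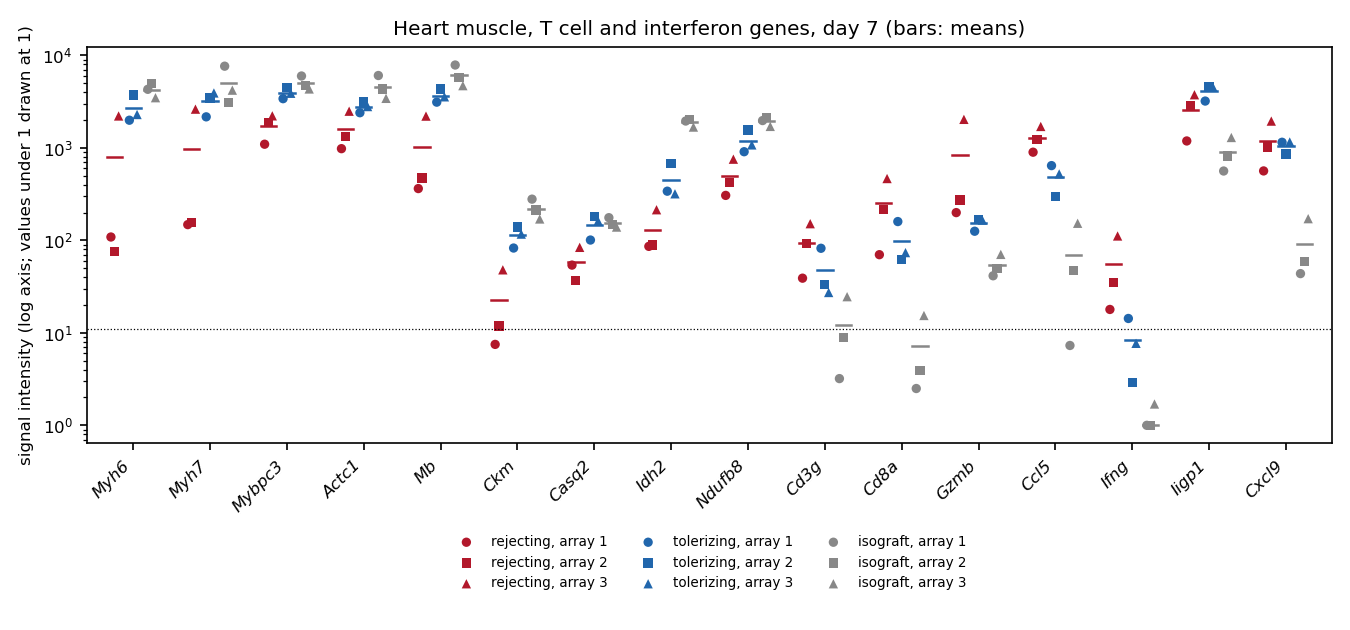
Signal intensity (log axis, values under 1 drawn at 1) of 16 heart muscle, T cell and interferon-response genes in rejecting allografts (red), tolerizing allografts (blue) and isografts (grey) at day 7, with the symbol giving the array number and the short bar the mean of 3 hearts. The triangle of rejecting heart 3 lies near the tolerizing hearts for Myh6 and Myh7 and is the highest red point for Cd3g, Cd8a, Gzmb, Ccl5, Ifng, Iigp1 and Cxcl9.

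Of 21 genes of glycolysis and glucose uptake 2 rose and 1 fell (median 0.378). Aldoc, aldolase C, had 85.1, 101.7 and 34.9 in rejecting hearts, against 11.8, 10.6 and 8.1 in tolerizing hearts (log2 difference 2.58, limma adjusted p = 0.0124). Pgam1, the phosphoglycerate mutase of most tissues, had 812.8, 904.2 and 916.8 in rejecting hearts, against 262.7, 384 and 498.8 in tolerizing hearts. For both, the lowest rejecting heart was above the highest tolerizing heart. Eno3, the muscle enolase, had 153.7, 188.8 and 668.4 in rejecting hearts, against 723.7, 1358.4 and 1027 in tolerizing hearts (log2 difference -1.90, limma adjusted p = 0.0405). Pgam2, the muscle phosphoglycerate mutase, had 5.8, 32.1 and 310.7 in rejecting hearts, against 326.1, 494.4 and 444.9 in tolerizing hearts, and was not called (adjusted p = 0.0764). Slc2a1, the glucose transporter of most cells, had 154.3, 201.1 and 144.7 in rejecting hearts, against 25.1, 31.8 and 65.7 in tolerizing hearts (log2 difference 2.14, adjusted p = 0.0854). Without rejecting heart 2 the calls for Aldoc and Pgam1 are lost (adjusted p = 0.0651 and 0.16), and without tolerizing heart 2 that for Eno3 (adjusted p = 0.205). Without rejecting heart 3 the log2 difference for Eno3 is -2.56. None of 13 hypoxia genes was called by limma, though all 13 had a positive difference, 8 had an unadjusted p under 0.05 and 10 had no overlap between the groups (median 0.681). Over all genes tested 9.61% had no overlap with rejecting above. Hif1a, the oxygen-regulated transcription factor, had 2663.4, 2206.5 and 1801.2 in rejecting hearts, against 1335.9, 1187.7 and 1210.5 in tolerizing hearts (adjusted p = 0.116).

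All 52 cell cycle and DNA replication genes had a positive difference, with 18 at an unadjusted p under 0.05 and none called by limma (median 0.625). Aurka, a mitotic kinase, had the smallest p, with 48.6, 42.3 and 55.7 in rejecting hearts, against 26.9, 17.4 and 28.9 in tolerizing hearts and 8.8 to 16.2 in isografts (log2 difference 1.03, adjusted p = 0.106). Heart 3 was the highest rejecting heart in 32 of the 52. Genes of one list share hearts and cells, so 52 like signs are not 52 independent observations. Among 22 antioxidant, heme and metallothionein genes, 2 rose and 2 fell. The risen genes were Hmox1 and Txnrd1, thioredoxin reductase, at 348.1, 385.1 and 300.4 in rejecting hearts, against 167.5, 202.3 and 176.2 in tolerizing hearts. The fallen genes were the extracellular enzymes Gpx3, at 689.7, 1070.4 and 899.2 in rejecting hearts, against 1750.7, 2744.2 and 3919.2 in tolerizing hearts, and Sod3, at 147.5, 153.6 and 180.4 in rejecting hearts, against 314, 303 and 345.5 in tolerizing hearts. Sod3 kept its call whichever array was left out (largest adjusted p = 0.0343) but not with the 2 groups fitted alone (adjusted p = 0.0707), while Hmox1 and Gpx3 lost theirs without tolerizing heart 2 (adjusted p = 0.186 and 0.12) and Txnrd1 without rejecting heart 2 (adjusted p = 0.164).

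**Figure D5:**
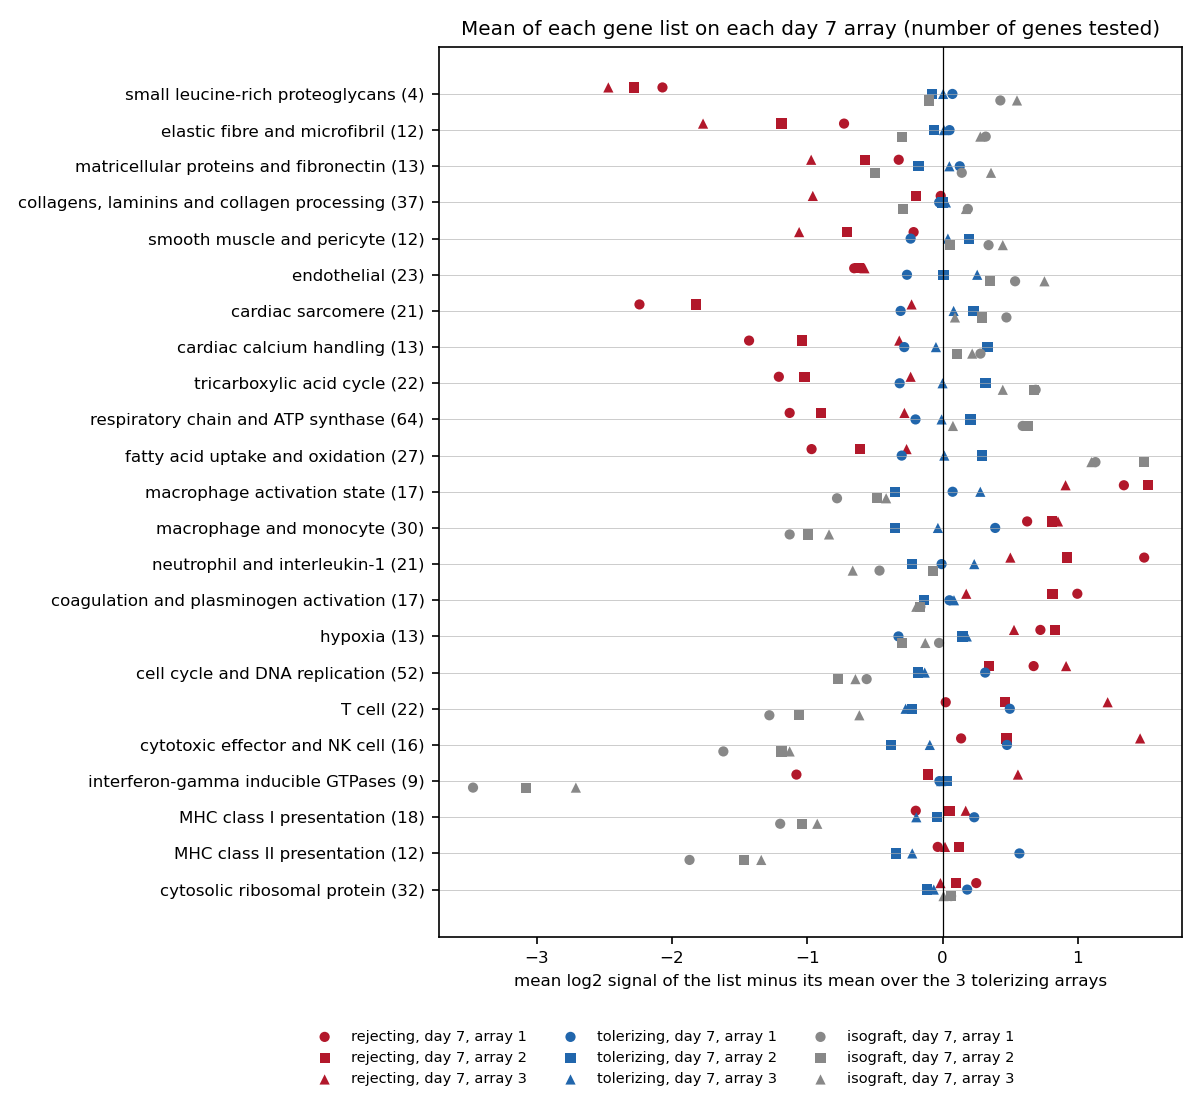
Mean log2 signal of 23 gene lists on each day 7 array, minus the list's mean over the 3 tolerizing hearts, for rejecting allografts (red), tolerizing allografts (blue) and isografts (grey), with the number of genes tested in brackets. Rejecting hearts 1 and 2 stand at -2.24 and -1.82 for the sarcomere and heart 3 at -0.229, while all 3 lie between -2.47 and -2.07 for the small leucine-rich proteoglycans.

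Of the remaining lists, cytosolic ribosomal proteins had 1 called gene of 32 (Rpl22, lower, with a second probe set at a difference of 1.25 in the other direction) and complement had 1 of 13 (Cd59a, lower). Cd59a, which shields cells from the membrane attack complex, had 75.4, 105.6 and 109.5 in rejecting hearts, against 167.8, 226 and 167.9 in tolerizing hearts and 343.1 to 560.9 in isografts (limma adjusted p = 0.037). Without tolerizing heart 2 the calls for Cd59a and Rpl22 are lost (adjusted p = 0.205 and 0.212). Among the lists with no call by limma were the constitutive proteasome (34 genes, 1 at an unadjusted p under 0.05, median 0.0762), endoplasmic reticulum stress (17 genes, none, 0.256), lysosomal enzymes (17 genes, 7, 0.344) and B and plasma cells (16 genes, none, 0.624). In all, 24 called genes had a further tested probe set, and in 20 it had the same sign. The exceptions were Aldh1a1, Pdxdc1, Rpl22 and Sh3bgr. A like sign includes very small differences, such as -0.0079 for Gstm2 and 0.052 for S100a10. Only the further probe sets of Ogn, Rgs5 and F10 were themselves called.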

How the data were processed

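The data are the deposited signal intensities of 12488 probe sets on 14 MG-U74Av2 arrays, 1 per transplanted heart, on a linear scale. The authors scaled each array, judged from the deposited values, since the trimmed mean intensity is 100.1 on every array. Software and background correction, like the scaling method, were not given in the sources used here. Groups were read from the sample titles, and the labels do not say whether replicate hearts are independent. The gene lists, markers and comparisons were chosen with earlier results of these data known.

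Intensities under 11 were set to 11 and log2 transformed. Probe sets above 11 on at least 3 of the 6 compared arrays were kept. The 5 groups were fitted together with limma 3.58.1 in R 4.3.3 (lmFit, then eBayes with an intensity trend, 9 residual degrees of freedom), with the contrast rejecting minus tolerizing, two-sided. P-values were Benjamini-Hochberg adjusted over all 9605 probe sets, with a threshold of 0.05. Across the array, 10833 non-control probe sets have 1 gene symbol, 396 several and 1193 none. Symbols were updated by gene ID from RefSeq (GRCm38.p6), where 10817 IDs were found. Each gene is represented by its brightest tested probe set. Named by rule were the 10 largest called rises and falls above 11 on all 6 arrays, the 4 brightest called genes per direction with 1 group under the floor, up to 2 called genes of smallest p per list and direction, the gene of smallest p of a list with no call, and H2-Ea. Other named genes were chosen after their values were seen. The test was checked on simulated data. A fold against a group wholly under the floor is a lower bound. The alternatives were other scalings, floors, filters, covariates and blocks, and leaving out each array.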

Additional observations from a re-analysis of the deposited data

How the results depend on the processing

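Against 160 probe sets called (58 higher, 102 lower in rejecting hearts), 34 were called with the 2 groups fitted alone (12 higher, 22 lower), 44 with the beta-actin 3' to 5' ratio as a covariate (13 higher, 31 lower) and 63 with no filter on low values (24 higher, 39 lower). With the second run alone 310 were called (121 higher, 189 lower), and with array weights 1539 (742 higher, 797 lower). Leaving out 1 array gave 37 to 788 calls (9 to 295 higher, 28 to 493 lower), with the lowest count without tolerizing heart 2 and the highest without rejecting heart 3. A floor of 40 gave 93 higher and 55 lower, so 62.8% of calls were higher, against 36.2%, and with array weights 48.2% were higher. The filter on all 6 arrays gave 37 higher. With the replicate block 215 were called (74 higher, 141 lower), 151 of them shared with the 160. Same-numbered deviations of rejecting and tolerizing hearts correlated at 0.235, 0.00372 and 0.26, and different-numbered ones at -0.307 to 0.203. The labels do not say whether like numbers pair the hearts, and these few correlations cannot settle it. All 160 kept their sign in every setting that tested them except a floor of 40, where 156 did. The groups did not overlap for any of the 133 called genes. Leaving out 1 array or changing the floor therefore could not reverse those signs, and is no test of them. Of the 133 called genes 13 were called in every setting that tested them and 24 with the 2 groups alone. For Car2, not called, the log2 difference of 1.07 was -0.0362 to 1.77 when 1 array was left out, negative without rejecting heart 1. The cause of these shifts was not tested. What limits the comparison is 3 hearts a group, 1 of which differs from the other rejecting hearts, and signals near the floor, where 41 probe sets were above 11 in 1 group only.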
